A study of Mus musculus with 6 samples.

Results

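The 47 genes described here encode the receptors with which myeloid cells bind glycans, antibodies, modified lipids, dying cells and host ligands, together with the adapter genes Tyrobp and Fcer1g. They were chosen by name and function, at a time when earlier results of these data were known. They comprise 13 C-type lectins, 6 Fc receptor genes, 7 genes of the Trem family with Tyrobp, 9 scavenger and uptake receptors, 9 immunoglobulin-like receptors and 3 phosphatidylserine receptors. A peak was assigned to a gene when it overlapped the gene body or the 20 kb on either side of it (mouse build mm10, GENCODE M21 annotation). Of the 11800 peaks in 6 lists, 51 met this rule, and 25 of the 47 genes (53.2%) had at least 1 of them, as had 23.7% of all protein-coding genes. Clec7a is annotated in M21 as a polymorphic pseudogene, and the other genes as protein-coding.

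Open chromatin was profiled with ATAC-seq, an assay whose transposase inserts into accessible DNA. It was applied to myeloid-derived suppressor cells of the monocytic kind (M-MDSCs), which were sorted as CD11b+, Ly-6C high and Ly-6G- from tumors that grew after Hepa 1-6 hepatoma cells, a mouse line, were placed in the liver of C57BL/6J mice. The mice were young females, a few weeks old, are wild type (WT) by label and had been selected by their blood MDSC share before treatment. The 3 groups were Vehicle, MS275 (MS-275) and CXD101, each with 2 libraries, and both compounds were given daily into the peritoneum at the same dose. MS-275 and CXD101 inhibit the class I histone deacetylases HDAC1, HDAC2 and HDAC3. The question was how each inhibitor changed open chromatin in tumor M-MDSCs.

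The receptors fall into signalling classes. Many C-type lectins, activating Fc receptors and Trem receptors lack a signalling tail of their own and pair with Fcer1g or Tyrobp, whose ITAM motifs recruit the kinase Syk, whereas receptors with an ITIM motif, such as Clec12a, Fcgr2b and Cd300a, recruit phosphatases that dampen the same signals. Scavenger receptors such as Marco, Cd163 and Mrc1 take up particles, haemoglobin complexes and glycoproteins, and Mertk and Axl recognise apoptotic cells through bridging proteins. In monocytes these genes are switched on and off with maturation and activation, and several lie in gene clusters: 19 of the 47 genes shared a merged window with another of them, so the 47 genes formed 35 separate loci, of which 20 had a peak.

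Each list holds the sites where MACS2, a Poisson peak caller, found 1 pooled group above another. A site higher with an inhibitor than with vehicle is called gained, and a site higher with vehicle is called lost. Fold enrichment is the number of tags (sequenced fragments as MACS2 piles them up) at the peak summit over the level of the other group, each plus 1. The tags and the level were recovered from the deposited fold enrichment and p-value of each peak and are on the depth of the shallower group. MS-275 libraries together were 1.14 times as deep as vehicle and CXD101 libraries 1.14 times, whereas MS-275 was 1.01 times as deep as CXD101. Intervals are exact 95% Poisson intervals of the tags and cover counting error only. The level of the other group is the highest of several local averages and so an upper estimate. Because the libraries were pooled before calling, no peak has a value per library and no difference could be set against the spread between the 2 libraries of a group. In such bulk data, fewer cells with an open site and less opening per cell cannot be told apart.

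Near these genes, gained sites came mainly with MS-275, as over the whole lists of 8480 MS-275 and 284 CXD101 gained peaks. The receptor genes held 0.354% of the first list and 0.352% of the second. With MS-275, 30 peaks near 17 of the 47 genes were gained, and 3 peaks near 4 genes were lost. CXD101 had 1 gained peak, near Clec12a, and 7 lost peaks near 6 genes. The direct comparison gave 10 peaks near 8 genes higher with MS-275 than with CXD101 and none higher with CXD101, in a list of 2 peaks in all. No gene had both a gained and a lost peak: 17 had gained peaks alone, 7 had lost peaks alone, and Lilrb4a had a peak in the direct comparison only. The other 22 genes had no peak in any list, so no site in their windows passed the caller's threshold in any comparison. Those were Clec4a1, Clec4a3, Clec4b1, Clec5a, Clec7a, Clec9a, Clec2d, Fcgr4, Fcer1g, Trem1, Trem3, Treml4, Msr1, Cd36, Stab1, Scarb1, Pirb, Sirpa, Siglece, Cd33, Cd300lf and Timd4.

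For background, 18.6% of all 21951 protein-coding genes had an MS-275 gained peak by the same rule, against 36.2% of the receptor genes. For lost peaks the shares were 2.9% of coding genes against 8.51% of receptor genes with MS-275, and 3.62% against 12.8% with CXD101. For CXD101 gained peaks they were 0.961% against 2.13%, for the direct comparison 6.62% against 17.0%, and for sites higher with CXD101 than with MS-275 0.0137% against 0%. The median window was 54.6 kb for the receptor genes and 57.4 kb for all coding genes. These shares are descriptions of a chosen list and were not tested, and neighbouring genes in a cluster can share a peak. The plot of shares by comparison gives both sets of values.

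**Figure D1:**
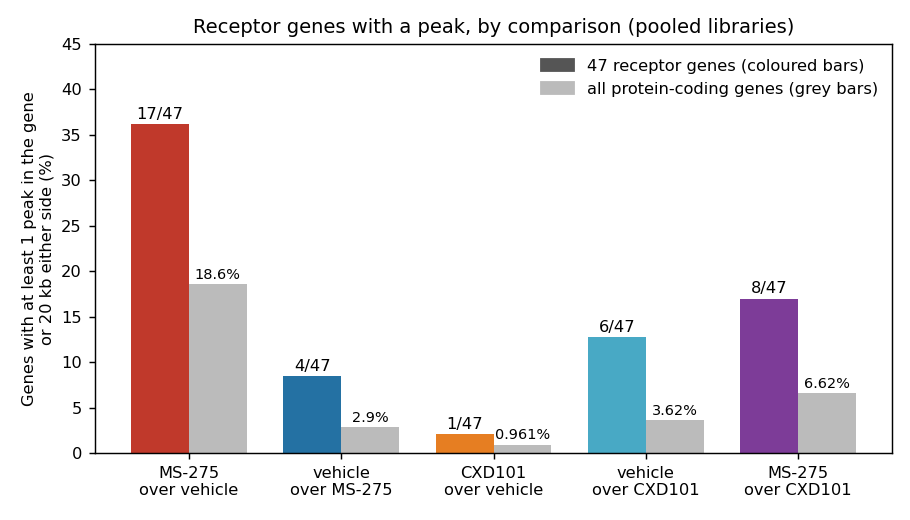
Share of genes with at least 1 peak in the gene or the 20 kb on either side (y axis, percent) in each comparison of 2 pooled libraries a group (x axis), for the 47 receptor genes (coloured bars, count above) and all 21951 protein-coding genes (grey bars). The receptor bars are 36.2% for MS-275 over vehicle and 2.13% for CXD101 over vehicle, beside 18.6% and 0.961% of all coding genes.

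Sequences of sites with high −log10 p-values in each list are shown first: the 4 highest of the MS-275 gained peaks near the receptor genes and up to 2 of each other list, leaving out a summit close to one already shown. Each is the forward strand of mm10, 5′ to 3′, over the summit of a peak and the 100 bases on either side of it, and capitals mark matches to 7 motifs searched on both strands, named with their shares further on.
Clec12a, gained at chr6:129357310-129357510: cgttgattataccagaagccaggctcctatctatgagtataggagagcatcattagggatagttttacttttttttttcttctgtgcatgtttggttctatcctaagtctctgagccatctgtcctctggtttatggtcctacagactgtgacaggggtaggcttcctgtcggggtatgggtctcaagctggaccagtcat
Clec12a upstream, gained at chr6:129336937-129337137: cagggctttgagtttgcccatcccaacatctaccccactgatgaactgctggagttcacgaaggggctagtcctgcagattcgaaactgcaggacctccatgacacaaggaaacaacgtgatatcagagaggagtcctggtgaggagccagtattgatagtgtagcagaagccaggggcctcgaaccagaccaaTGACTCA
Clec4d, gained at chr6:123267177-123267377: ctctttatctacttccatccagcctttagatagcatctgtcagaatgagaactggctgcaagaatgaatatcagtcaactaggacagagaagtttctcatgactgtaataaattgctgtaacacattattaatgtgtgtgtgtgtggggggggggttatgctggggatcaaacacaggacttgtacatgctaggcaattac
Fcgrt, gained at chr7:45090489-45090689: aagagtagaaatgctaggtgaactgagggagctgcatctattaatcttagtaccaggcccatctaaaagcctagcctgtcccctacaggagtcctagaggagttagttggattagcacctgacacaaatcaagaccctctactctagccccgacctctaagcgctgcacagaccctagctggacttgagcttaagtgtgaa
Clec4a2, lost at chr6:123116546-123116746: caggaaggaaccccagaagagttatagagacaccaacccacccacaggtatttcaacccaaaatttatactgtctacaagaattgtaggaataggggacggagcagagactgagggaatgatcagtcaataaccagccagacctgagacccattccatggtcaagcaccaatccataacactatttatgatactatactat
Trem2 and Treml1, lost at chr17:48356068-48356268: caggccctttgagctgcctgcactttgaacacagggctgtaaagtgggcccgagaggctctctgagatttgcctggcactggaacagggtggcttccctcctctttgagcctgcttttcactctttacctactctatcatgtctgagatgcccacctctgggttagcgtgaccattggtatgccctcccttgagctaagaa
Fcgr2b, lost at chr1:170978525-170978725: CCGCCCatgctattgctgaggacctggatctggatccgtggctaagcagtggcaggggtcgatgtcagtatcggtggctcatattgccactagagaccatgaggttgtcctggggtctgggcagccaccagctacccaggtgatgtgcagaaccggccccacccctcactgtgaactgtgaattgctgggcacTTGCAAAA
In this set the only AP-1 match lay at the 3′ end of the Clec12a upstream site, and the Fcgr2b site held the only SP/KLF and C/EBP matches.

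Among the C-type lectins, 4 of 13 genes had MS-275 gained peaks (30.8%, against 18.6% of all coding genes). These 14 peaks fell at 2 places on chromosome 6. Clec12a, an inhibitory receptor for uric acid crystals and dead cells, had the most. Its 9 MS-275 gained peaks lay upstream of the gene, at its start and inside it, with fold enrichments from 2.51 to 5.65. At chr6:129342380-129342960, around the annotated gene start, the summit 125 bp upstream of the start held 29.7 MS-275 tags (20.6 to 41.5) where vehicle had a level of 5.84, a 4.49-fold enrichment. The summit 109 bp downstream of the start held 31.5 tags over 5.84 (4.75-fold). The vehicle level at the start of Clec12a was low. Both peaks were listed because MS-275 tags exceeded it, so the gap is a description. The same 5.84 was the vehicle level at a summit of chrX:96222923-96223806 and the MS-275 level at a site near the gene Tec. It may thus be a floor of the caller and not a local value.

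Farther upstream, the site at chr6:129336891-129337466 had its summits 5654 and 5338 bp before the Clec12a start, with 58.6 tags over 14.0 (3.97-fold) and 36.7 over 8.0 (4.19-fold). Inside the gene, chr6:129351339-129351567 was the most open of the Clec12a sites with vehicle and changed least, with 74.3 tags over 29.0 (2.51-fold). The site at chr6:129356325-129356590 held 39.4 tags over 7.4 (4.80-fold). The next one, chr6:129356710-129357845, carried 3 summits, the strongest of them with 55.1 tags (42.3 to 70.5) over 10.0 (5.10-fold) and 49.8 (37.7 to 64.6) over 8.0 (5.65-fold). That interval covers the first exon of a Clec12a transcript with a retained intron. It also held the only CXD101 gained peak of the 47 genes, chr6:129357222-129357429, with 34.3 CXD101 tags (24.4 to 46.9) over a vehicle level of 7.20 (4.30-fold). Clec12a therefore gained accessibility with both inhibitors at that internal site.

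Clec4n (Dectin-2), Clec4d and Clec4e (Mincle) lie side by side and encode ITAM-coupled receptors for microbial glycans and glycolipids. The 3 genes shared 5 MS-275 gained peaks and had none in the other lists. The site at chr6:123261801-123262026, 194 bp upstream of Clec4d, held 57.7 tags (44.6 to 73.4) over a vehicle level of 17.2 (3.23-fold). In a Clec4d intron, chr6:123267190-123267391 held 72.6 tags (57.8 to 90.0) over 20 (3.50-fold). Within Clec4e, chr6:123288051-123288402 held 35.0 tags over 10.3 (3.18-fold), and chr6:123288579-123289099 held 49.8 over 11.6 (4.03-fold) at 1 summit and 41.1 over 15.2 (2.60-fold) at the other. The Clec4n window reached only the peak upstream of Clec4d, 14.8 kb beyond the end of Clec4n, so that gene had no peak of its own. The Clec4d promoter is shown because a gained peak overlaps it.
Clec4d promoter at chr6:123261857-123262156: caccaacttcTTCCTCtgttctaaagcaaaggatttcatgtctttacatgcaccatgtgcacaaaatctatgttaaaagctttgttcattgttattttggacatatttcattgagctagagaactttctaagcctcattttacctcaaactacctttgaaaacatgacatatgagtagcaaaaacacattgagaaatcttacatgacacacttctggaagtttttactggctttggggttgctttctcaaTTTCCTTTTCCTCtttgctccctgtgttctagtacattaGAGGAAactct
The promoter is the RefSeq sequence for GRCm38.p6, from 250 bases before to 50 bases after the gene start on the forward strand. Its capitals mark 3 ETS matches and 1 IRF match on the reverse strand that overlaps 1 of them.

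Other lectins went down or did not pass. Clec4a2, which carries an ITIM and is expressed on dendritic cells and monocytes, had the highest fold of the 3 MS-275 lost peaks: in its intron, chr6:123116531-123116741 held 57.0 vehicle tags (43.2 to 73.9) over an MS-275 level of 10.1 (5.21-fold). It had no CXD101 lost peak, and no test compared the inhibitors at that site beyond the direct lists, which held no peak there. Clec10a, a galactose-binding lectin of macrophages, had a CXD101 lost peak 81 bp upstream of an internal annotated start, with 116 vehicle tags over 74.8 (1.54-fold). The C-type lectins thus held the largest number of gained peaks of the 6 groups and 2 lost sites.

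Of the 6 Fc receptor genes, 2 had an MS-275 gained peak (33.3%, against 18.6% of all coding genes). Another 2 had a CXD101 lost peak (33.3%, against 3.62%). Fcgrt, the neonatal Fc receptor that recycles IgG, had 1 MS-275 gained peak at chr7:45090450-45090695 with 49.0 tags (37.0 to 63.6) over 10.2 (4.46-fold). The summit lies beyond the 3′ end of Fcgrt, in an intron of the neighbouring gene Rcn3. Fcgr1, the high-affinity IgG receptor, gained a weaker peak 152 bp inside its start, with 53.3 tags over 26.4 (1.98-fold).

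With CXD101, Fcgr2b and Fcgr3, genes of low-affinity receptors, had lost sites. Fcgr2b, the inhibitory IgG receptor, had 76.0 vehicle tags (59.9 to 95.1) over a CXD101 level of 27.4 at chr1:170978496-170978712, 2078 bp upstream of its start (2.71-fold). Fcgr3, an activating receptor, had 195 vehicle tags over 135 at a site 388 bp inside its start (1.44-fold) and 173 over 124 at a site 14895 bp upstream (1.39-fold). The Fcgr3 sites were the most open of all those near the 47 genes and changed by the smallest folds. No MS-275 lost peak lay near an Fc receptor gene, which says little, as 2.9% of all coding genes had one. The direct lists of the inhibitors held no peak near Fcgr2b or Fcgr3. Fcgr4 and the adapter Fcer1g had no peak in any list.

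In the Trem family, a single intergenic place carried the losses. Trem2, a lipid-sensing receptor of macrophages, and Treml1, a platelet and myeloid receptor, flank it. With MS-275, chr17:48356070-48356287 held 67.0 vehicle tags (51.9 to 85.1) over 18.4 (3.51-fold). With CXD101, chr17:48356072-48356310 held 67.0 vehicle tags over 13.4 (4.73-fold), and a second peak at chr17:48355739-48355949 held 42 (30.3 to 56.8) over 13.2 (3.03-fold). The first site was thus lost with both inhibitors, in comparisons that used the same vehicle libraries. The summits lie 3748 and 3747 bp upstream of Treml1 and beyond the 3′ end of Trem2.

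The gained sites of this family were near Treml2 and Tyrobp. Treml2 had 104 MS-275 tags (86.2 to 125) over 48.2 with vehicle (2.14-fold) at chr17:48300084-48300290, inside the gene and 126 bp upstream of an internal annotated start. Tyrobp, which encodes the ITAM adapter DAP12, had 95.3 tags (78.3 to 115) over 34.0 (2.75-fold) at chr7:30417807-30418055. That summit lies in an intron of Hcst, the adjoining gene for the adapter DAP10. Trem1, Trem3 and Treml4 had no peak.

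Of the 9 scavenger and uptake receptors, 5 had MS-275 gained peaks (55.6%, against 18.6% of all coding genes), 6 in all. None had a lost peak or a CXD101 gained peak. Such peaks are rare over all coding genes (2.9% MS-275 lost, 3.62% CXD101 lost, 0.961% CXD101 gained), so their absence among 9 genes says little. Cd163, the haemoglobin scavenger receptor, had 42.8 tags (31.7 to 56.6) over 12.6 in an intron at chr6:124321766-124322014 (3.22-fold). Marco, a receptor for bacteria and particles, had 28.0 tags over 8.20 at a site 5275 bp upstream (3.15-fold). Mrc1, the mannose receptor, had 50.7 tags (38.5 to 65.6) over 18.8 at chr2:14228784-14229074, 510 bp upstream of its start (2.61-fold). For these 3 genes the site lay in the gene or within a few kb of its start.

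For Cd68 and Vsig4 the assignment rests on distance. The Cd68 peak had 69.1 tags over 39.6 (1.73-fold), the lowest fold of the 30 MS-275 gained peaks, and lay 19.4 kb from the gene, at the start of Tnfsf13. Vsig4, a complement receptor of tissue macrophages, had 63.0 tags over 20.8 (2.93-fold) at 11.4 kb and 25.4 over 11.3 (2.14-fold) at 2.98 kb beyond its 3′ end. Those 2 sites lie 7.02 and 1.30 kb from Mir223, a microRNA gene of myeloid cells.

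Of the 9 immunoglobulin-like receptors, 3 had MS-275 gained peaks (33.3%, against 18.6% of all coding genes). None had a lost peak, which says little, as 2.9% of coding genes had one with MS-275 and 3.62% with CXD101. Siglec1, a sialic acid receptor of macrophages, had 42 tags (30.9 to 55.6) over 12 at chr2:131088725-131088951, 2055 bp upstream of its start (3.31-fold). Cd300a, which binds phosphatidylserine and carries ITIMs, had 54.2 tags over 20 at a site 6854 bp upstream (2.63-fold), and a second site shared with its neighbour Cd300lb had 58.6 over 24.8 (2.31-fold). Pirb, Siglece, Cd33, Cd300lf and Sirpa, the receptor for CD47, had no peak.

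Of the 3 phosphatidylserine receptor genes, 1 had MS-275 gained peaks (33.3%, against 18.6% of all coding genes). Another 1 had a lost peak with each inhibitor (33.3%, against 2.9% with MS-275 and 3.62% with CXD101). No CXD101 or direct list held an Axl peak. Axl, a receptor tyrosine kinase, had 3 MS-275 gained peaks in its introns. At chr7:25783020-25783232 there were 58.6 tags (45.4 to 74.4) over 15.2 (3.68-fold), at chr7:25782629-25782846 there were 55.1 over 17.8 (2.98-fold), and at chr7:25774581-25774892 there were 34.1 over 15.0 (2.19-fold). Mertk, a kinase of the same family, had a peak 460 bp upstream of its start, at chr2:128698394-128698605 in the MS-275 lost list, that was lost with both inhibitors. The 63.0 vehicle tags (48.4 to 80.6) there stood over a level of 23.8 with MS-275 (2.58-fold) and 21.1 with CXD101 (2.90-fold). Timd4, which binds phosphatidylserine directly, had no peak.

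**Figure D2:**
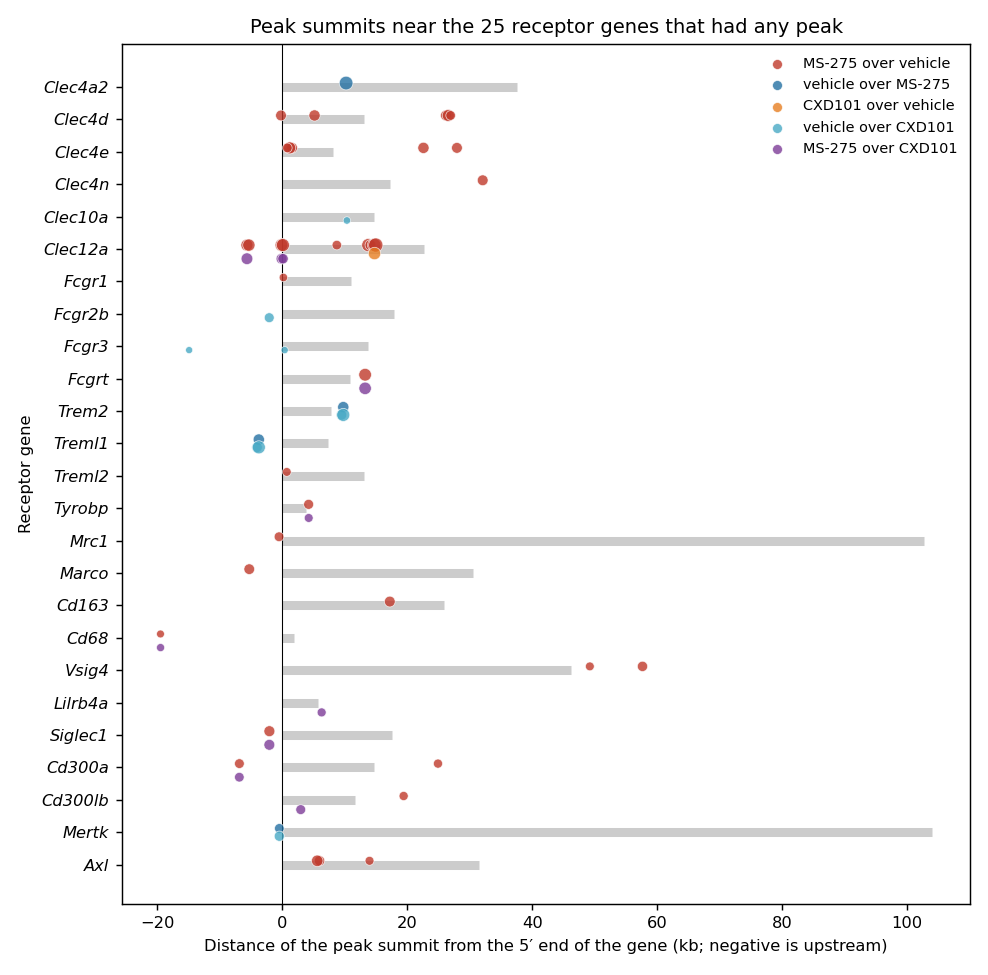
Distance of each peak summit from the 5′ end of its gene (x axis, kb, negative is upstream) for the 25 receptor genes with any peak (y axis), with gene bodies as grey bars, colour for the comparison and point area for fold enrichment (from 1.39 to 5.65). Clec12a carries peaks upstream, at its start and inside the gene, whereas the Cd68 and Vsig4 points lie far from the gene start.

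Over the 30 MS-275 gained peaks, MS-275 tags had a median of 50.3 and the vehicle level one of 14.5, and the fold enrichment had a median of 3.20 (from 1.73 to 5.65). Over all 8480 MS-275 gained peaks these medians were 49.8 tags, 15.8 and 2.88. The receptor sites were thus close to the list in tags and vehicle level. By the study's definition of a promoter, the 5 kb upstream of any annotated start, 16 of the 30 (53.3%) were promoter peaks, against 31.9% of the whole list, and 6 were intronic, 6 intergenic and 2 exonic. A promoter of one of the 47 genes held 12 of them, near 6 genes but unevenly, with Clec12a holding more than any other gene. A peak counted when any part of its interval overlapped the promoter. At chr6:129356710-129357845, the counted summits lay 12, 608 and 854 bp downstream of an internal Clec12a start. The summit lay in a receptor gene body for 16 peaks and in another coding gene for 3. The 30 peaks lay in 25 separate intervals, since MACS2 lists each summit of a broad site.

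**Figure D3:**
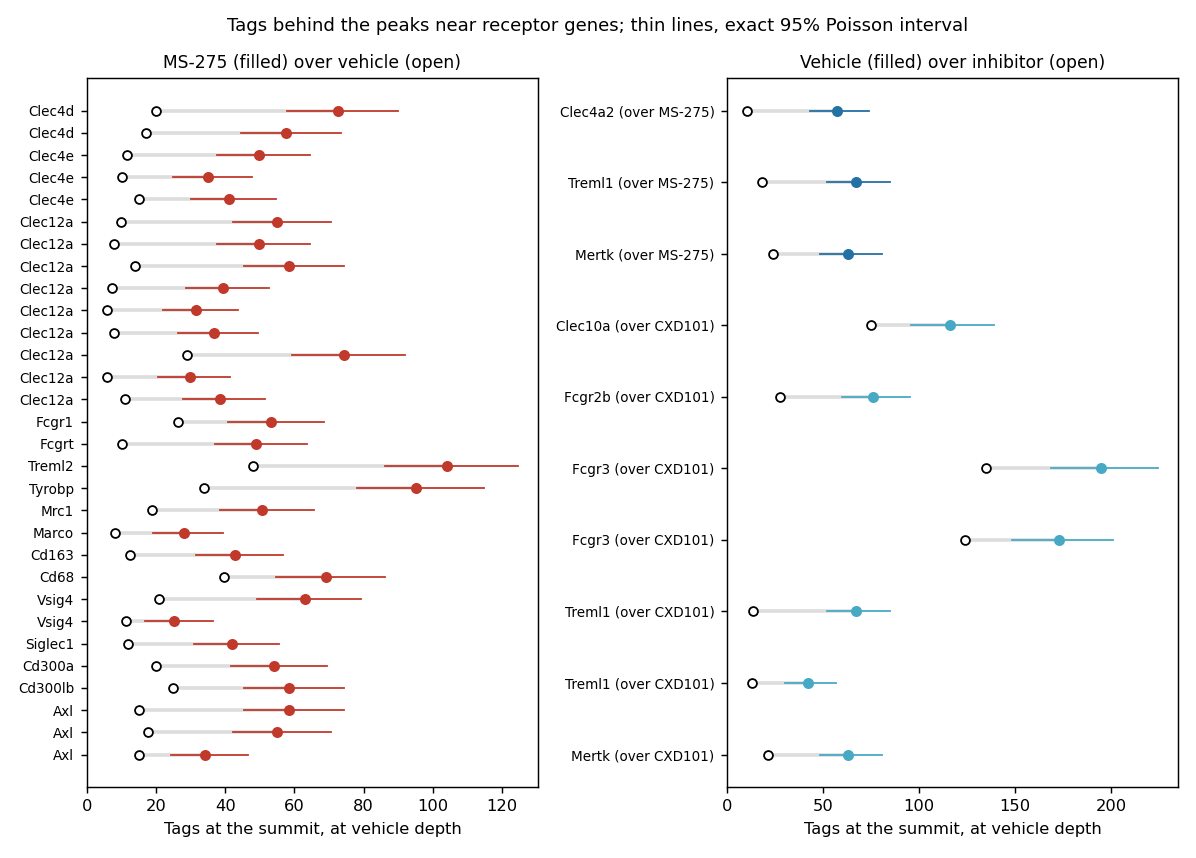
Tags at the summit of the higher group (filled, with exact 95% Poisson interval) and level of the other group (open), at vehicle depth (x axis), for the 30 MS-275 gained peaks (left) and the 10 lost peaks (right), labelled by the receptor gene whose 5′ end is nearest (y axis). MS-275 points run from 25.4 to 104 tags, and the 2 Fcgr3 sites stand apart at the right with 195 and 173 vehicle tags.

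Both signalling classes held gained and lost sites. Of 17 ITAM-coupled receptors and adapters, 6 had an MS-275 gained peak (Cd300lb, Clec4d, Clec4e, Clec4n, Fcgr1 and Tyrobp), 1 had an MS-275 lost peak (Trem2) and 2 had a CXD101 lost peak (Fcgr3 and Trem2). Of 10 ITIM-bearing receptors, 2 had an MS-275 gained peak (Cd300a and Clec12a), 2 an MS-275 lost peak (Clec4a2 and Treml1) and 2 a CXD101 lost peak (Fcgr2b and Treml1). For MS-275 gained peaks this is 35.3% of the ITAM class and 20% of the ITIM class, beside 18.6% of all coding genes. For lost peaks the coding-gene shares were 2.9% with MS-275 and 3.62% with CXD101. By peaks the order is reversed, with 8 MS-275 gained peaks in the ITAM class and 11 in the ITIM class, 9 of them near Clec12a. Within the ITAM class, Clec4d, Clec4e and Clec4n shared 5 peaks. The classes share sites: the lost peaks of Trem2 and Treml1 are the same, and 1 gained peak is counted for both Cd300a and Cd300lb. No test compared the classes.

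The direct comparison of the inhibitors named Clec12a, Fcgrt, Siglec1, Tyrobp, Cd300a, Cd300lb, Cd68 and Lilrb4a, each higher with MS-275. Of its 10 peaks, 8 overlapped an MS-275 gained peak (80.0%, against 72.2% of the whole list of 1650). At those 8 summits all 3 groups have a value, set here to vehicle depth. The summits at the Clec12a start lie in the same interval. At the Fcgrt site there were 49.0 MS-275 tags, a CXD101 level of 10.7 and a vehicle level of 10.2. The Siglec1 site had 42, 12 and 12 in the same order, and the Clec12a upstream site 58.6, 14.1 and 14.0. CXD101 and vehicle were close at those 3 sites, and neither CXD101 list held a peak there, which does not show that the pair was equal.

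At the Clec12a start the CXD101 levels were 8.79 and 10.6, with 29.7 and 31.5 MS-275 tags. Vehicle stood at 5.84 at both summits, the value that may be a floor, so the step from vehicle to CXD101 there is uncertain. At Tyrobp the 3 values were 95.3, 43.1 and 34.0, at Cd300a 54.2, 21.6 and 20, and at Cd68 69.1, 38.9 and 39.6. CXD101 exceeded the vehicle level at 6 of the 8 summits, by at most 9.09 tags. These sites were listed because MS-275 was high at them, so the MS-275 values are a description. Cd300lb had a site in the direct list that no vehicle list held, chr11:114931334-114931534, with 82.5 MS-275 tags (65.7 to 102) over a CXD101 level of 30.0 (2.69-fold), at CXD101 depth. Lilrb4a, an inhibitory leukocyte receptor, likewise had 34.8 over 15.0 (2.24-fold) at that depth at chr10:51497203-51497597, just past its 3′ end. The nearest protein-coding gene body to that summit was Gm49339.

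**Figure D4:**
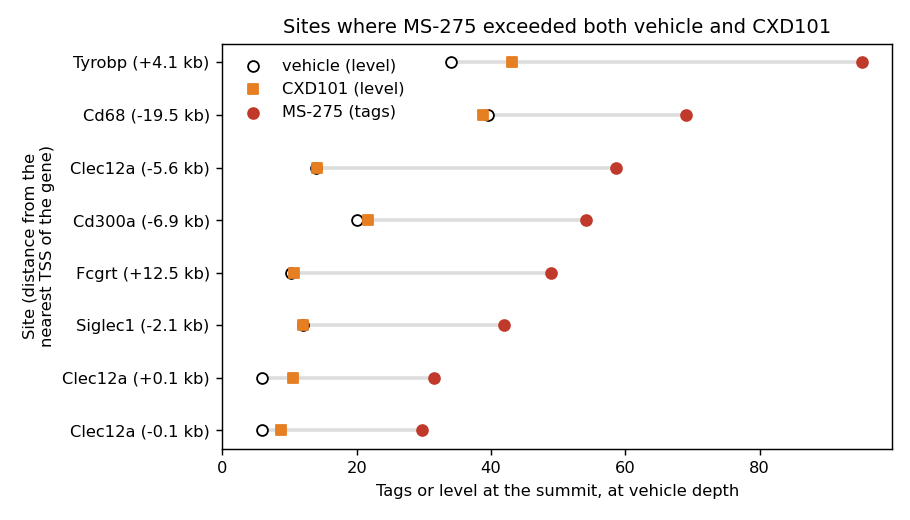
MS-275 tags (red circles), CXD101 level (orange squares) and vehicle level (open circles) at vehicle depth (x axis) at the 8 summits near receptor genes (y axis, with the distance from the nearest annotated start of the gene) where MS-275 exceeded both vehicle and CXD101. The CXD101 square lies within 9.09 tags of the vehicle circle at each site, and the MS-275 circles lie from 29.7 to 95.3 tags.

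Seen from the MS-275 gained list, 9 of the 30 receptor peaks (30.0%) overlapped a peak of the direct comparison, against 17.4% of all 8480, and 3 (10.0%) overlapped a CXD101 gained peak, against 4.22%. Those 3 are the summits of the single internal Clec12a interval. Of the 3 MS-275 lost peaks, 2 overlapped a CXD101 lost peak (66.7%, against 50.8% of that list), and of the 7 CXD101 lost peaks 2 overlapped an MS-275 lost peak (28.6%, against 49.1%). The comparisons share the vehicle libraries.

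Motif matches within 100 bases of the summit were described for the 30 MS-275 gained peaks beside the whole list. ETS (GAGGAA) was found at 7 peaks (23.3%, against 21.6%), AP-1 (TGANTCA) at 3 (10.0%, against 4.55%), C/EBP (TTGCNNAA) at 3 (10.0%, against 9.02%) and SP/KLF (GGGCGG) at 3 (10.0%, against 10.6%). RUNX (TGTGGT) was found at 2 (6.67%, against 15.2%), and E-box (CACGTG) and the IRF element at none (against 2.96% and 2.71%). ETS and IRF letters can overlap, as in the Clec4d promoter above. Of 20150 RefSeq promoters, 27.2% held the ETS letters and 3.42% the IRF letters. A match is a description of letters and not a bound site.

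Of the 32 genes of a list of the receptors' kinases, adapters, phosphatases and ligands, 15 had an MS-275 gained peak (46.9%, against 18.6% of all coding genes). Lost peaks lay near 6 genes with MS-275 (18.8%, against 2.9%) and 8 with CXD101 (25%, against 3.62%). A peak of the direct comparison lay near 9 (28.1%, against 6.62%), and none had a CXD101 gained peak (against 0.961%). Cd47, whose product is the ligand of Sirpa, had 17 MS-275 gained peaks with fold enrichments from 1.89 to 5.84. Several of these were summits of the same interval. The ligands and bridging proteins Cd47, Apoe and C3 held 22 of the 40 MS-275 gained peaks of the list. Syk, the kinase that ITAMs recruit, had 1 intronic site lost with both inhibitors: 70.0 vehicle tags stood over 16.3 with MS-275 (4.11-fold) and 17.8 with CXD101 (3.78-fold). Tec, Nfatc1 and Nfatc2 also had a lost peak with each inhibitor and, besides, an MS-275 gained peak in their windows. In the window of Ptpn6, a phosphatase that ITIMs recruit, the site lost with both (1.51-fold and 1.39-fold) lay at the neighbouring gene Grcc10.

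The lists hold only sites that differ, so the presence of a cell type cannot be read from them. Of 10 monocyte markers 7 had any peak, as had 6 of 8 neutrophil, 3 of 8 liver macrophage, 1 of 6 dendritic cell, 4 of 8 T cell, 1 of 5 NK cell, 1 of 8 hepatocyte and 3 of 6 stellate or endothelial markers, and none of the 5 B cell and 4 erythroid markers, beside 23.7% of all coding genes. With MS-275, peaks were gained near 7 of the monocyte, 5 of the neutrophil, 4 of the T cell and 3 of the stellate or endothelial markers. They were also gained near 2 of the liver macrophage and 1 each of the dendritic cell, NK cell and hepatocyte markers, beside 18.6% of all coding genes. Among them were Ly6g, Mpo, Cd3e and Pecam1. Lost peaks lay near Cx3cr1 and Itgam of monocytes and Cd3g of T cells with both inhibitors, and these genes also had MS-275 gained peaks. Others lay near Ltf of neutrophils with MS-275 and near Cd5l of liver macrophages with CXD101, beside 2.9% and 3.62% of coding genes. The part of other cell types in the receptor results was not tested.

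The window of 20 kb decides some counts. Just inside it lay the Cd68 peaks (19.4 kb) and, for Clec4e, the peak upstream of Clec4d (19.8 kb). Just outside lay an MS-275 gained peak 20.2 kb from Clec4n (3.50-fold) and one 20.5 kb from Fcgr2b (3.60-fold). Between 21.3 and 25.8 kb beyond Vsig4 lay 6 more MS-275 gained peaks, 2 CXD101 gained peaks (4.13-fold and 4.89-fold) and 4 peaks higher with MS-275 than with CXD101 (from 2.23-fold to 3.37-fold). The strongest of them, chrX:96222923-96223806, held 93.6 MS-275 tags and a vehicle level of 8.0 (10.5-fold).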

How the data were processed

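ATAC-seq libraries of tumor M-MDSCs, 2 per group, were processed by the authors with Bowtie2 (version not given in the sources used here) and MACS2 2.2.7.1 on mm10. The authors pooled the libraries of a group and called each group over another, which gave 6 deposited peak lists and no value per library. The deposited score is 10 times the −log10 q-value for 99.98% of peaks. The ratio deposited by the authors is the fold enrichment at the summit with a pseudocount of 1, beside the deposited −log10 p-values and −log10 q-values and the summit offset. The methods name a p-value threshold, whereas the highest q-value listed is 0.05.

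Here, tags and levels were solved from fold enrichment and p-value under the Poisson rule of MACS2, which gave back the p-value of all 11800 peaks within 0.002 on the −log10 scale. Recovery and peak assignment were tested on simulated data. Several solutions fitted 119 MS-275 gained and 5 CXD101 gained peaks, none of them near the receptor genes. Shares of genes and motif matches were computed with Python 3.11.15, pandas 2.3.3, numpy 2.4.6, scipy 1.17.1 and matplotlib 3.10.9. The test behind each peak is the authors' MACS2 Poisson test, one-sided for the higher group. No further test was made. Total depth is not in the lists, and only depth ratios were recovered.

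The genes and lists were chosen with earlier results of these data known. Values are given for genes with a peak in 2 or more lists, with a CXD101 gained or a lost peak, or among the 20 with the highest −log10 p-value of an MS-275 gained peak. Alternatives were other windows, stricter q-value and fold limits, assignment to the nearest gene, other overlap and motif distances and all annotated genes as background.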

Additional observations from a re-analysis of the deposited data

Results flagged for a closer look

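At 10 summits in 9 intervals near 8 of the receptor genes, the inhibitors differed by the direct MACS2 test. That test set pooled MS-275 over pooled CXD101 libraries and has no replicate check. The fold enrichments of MS-275 over CXD101 were 4.29 near Fcgrt, 3.80, 3.16 and 2.98 near Clec12a, and 3.27 near Siglec1. They were 2.69 near Cd300lb, 2.56 near Cd300a, 2.24 near Lilrb4a, 2.17 near Tyrobp and 1.83 near Cd68. The sites of Cd300lb and Lilrb4a were in neither vehicle list, so there the difference stands on the direct test alone.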

How the results depend on the processing

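Counts of receptor genes and peaks depended most on the window. With the gene body alone, 7 genes and 17 peaks were gained with MS-275, 1 gene and 1 peak were lost with MS-275, 2 genes and 2 peaks were lost with CXD101, and 2 genes and 3 peaks were higher with MS-275 than with CXD101. With 50 kb on either side, MS-275 gained peaks numbered 54 near 27 genes, MS-275 lost peaks 6 near 8 genes, CXD101 gained peaks 3 near 2 genes, CXD101 lost peaks 12 and direct peaks 18. In 5 of the 6 lists the share of receptor genes stayed above that of coding genes with 0, 5, 20 and 50 kb. A fold enrichment of at least 2 left 4 CXD101 lost peaks. Assignment to the nearest protein-coding gene left 5 direct peaks near 4 genes. With summits within 250 bp as the rule, 1 MS-275 gained peak in place of 3 matched a CXD101 gained peak. Over all 55450 annotated genes, the background was 1.90% of genes in the MS-275 lost list, 2.27% in the CXD101 lost list and 0.00721% in that of CXD101 over MS-275. Within 50 bases of the summit, AP-1 and SP/KLF matches were 0. With a pseudocount of 0, 3 of the 51 peaks gave back their p-value. The other 81 alternative values of the main counts stayed within 1.5 times. No paired analysis was possible because MACS2 was run on merged replicates and the files carry nothing for a single library, and leaving out a library could not be run for the same reason.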
